A study of Mus musculus with 18 samples.

Results

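Ectopic lesions grown from ERBOE uterine fragments were set against the uterus of ERBOE mice, gene by gene and over lists of genes grouped by function or cell type. ERBOE mice are described as overexpressing oestrogen receptor beta. The comparison uses 6 of the 18 arrays of the series, 3 titled as ERBOE lesions and 3 titled as ERBOE uterus. For a lesion, 1 fragment punched at 2 mm from the uterus of an ERBOE mouse of 8 weeks was implanted into a wild-type, intact C57BL/6J female of the same age, and the lesion was taken at estrus in the 4th week after surgery. The ERBOE uterus was taken at estrus from mice of 12 weeks that had no surgery. Lesions therefore hold ERBOE graft cells together with wild-type host cells, whereas the uterus came wholly from ERBOE mice, and surgery, host genotype and site differ between the groups at once and cannot be told apart. The implantation site is not stated. PRCre/+ mice, which carry Cre at the progesterone receptor locus, were the controls, and their lesions in wild-type hosts and their uterus were made in the same way. ERBOE eutopic endometrium, set beside the main comparison once, came from ERBOE hosts that carried a wild-type fragment. Each array held RNA pooled from 3 of the 9 animals of its group, so the spread between arrays is the spread between pools. For the ERBOE lesions, the titles and the design text were followed, since the source field contradicts them by stating that no endometriosis was present.

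Endometriosis is the growth of endometrium-like tissue outside the uterus. A grafted fragment has to attach, gain a blood supply and persist in tissue that contains fat, connective tissue and resident immune cells, and lesions are known for macrophage and neutrophil infiltration, cytokine release and fibrosis. Oestrogen receptors alpha and beta are ligand-regulated transcription factors encoded by Esr1 and Esr2, and both act in the uterine epithelium, stroma and muscle. Since all samples are bulk tissue, a lower signal from fewer cells of a type and one from less RNA per cell cannot be told apart.

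Values are log2 signals relative to the 75th percentile of the same array, so a value of 0 equals that percentile and negative values lie below it. The 75th percentile signal of the 6 arrays ranged from 451 to 660, with 56.4% to 65.9% of probes well above background and 0 saturated spots. Arrays correlated at 0.951 to 0.968 among lesions, at 0.963 to 0.973 among uteri and at 0.945 to 0.957 between the groups. The first principal component of the 6 arrays held 37.05% of the variance and separated all 3 lesions from all 3 uteri. The second, with 26.06%, separated lesion replicate 2 and uterus replicate 3, the pair on slide 1, from the other 4 arrays. Esr2, the gene named in the overexpression, read 2.20 ± 0.16 in ERBOE lesions, against 2.46 ± 0.07 in PRCre lesions, and 2.46 ± 0.08 in ERBOE uterus, against 2.70 ± 0.15 in PRCre uterus (SD, n = 3 arrays each), so its probe does not show an excess in the arrays labelled ERBOE. The sources used here do not say whether that probe detects the transgene, so it does not check the labels. Every slide held 1 ERBOE lesion array and 1 ERBOE uterus array, so each difference between these groups can also be read within a slide.

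Higher in ERBOE lesions than in ERBOE uterus were adipocyte genes such as Cfd and Fabp4, acute phase and innate genes such as Hp and S100a8, and the secreted inhibitor genes Grem1 and Sfrp1. The fewer genes that were lower included Xcl1 and Klra4 of natural killer cells, and also Calml3, Klf4 and Gsta2. No gene of the epithelial keratin and junction list was called. Of 33178 features tested with limma, 411 passed a Benjamini-Hochberg adjusted p of 0.05, which is 1.24% of those tested. They divided into 316 that were higher in lesions (0.952%) and 95 that were lower (0.286%). Of the 17901 features with a gene symbol, 270 were higher (1.51%) and 53 lower (0.296%). Whether called or not, 8223 of these 17901 had a positive difference and 9678 a negative one. The signs counted within lists below are to be read beside these numbers. Before adjustment 3933 features had a p under 0.05, and 1659 are the number that chance alone gives. The medians were 2.82 among the features called higher and -1.93 among those called lower, against -0.07 over all features tested. They include 87 higher features that were not above background on any uterus array and 21 lower features that were not on any lesion array, whose fitted differences are not measured folds. The lesion and uterus arrays did not overlap for any of the 411, as was the case for 20.1% of all features. The sign was the same within all 3 slides for 406 of the 411, and 370 passed with slide as a block. Of the genes on the lists used below, 87 were called, and with slide as a block 95, of which 16 were gained and 8 lost (each is given with its list).

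The number called depended on single arrays. It was 121 without lesion replicate 1, 182 without lesion replicate 3, 137 without uterus replicate 1, 137 without uterus replicate 2 and 256 without uterus replicate 3. Of the 411 features, 104 passed whichever of the 6 arrays was left out, 95 of them higher and 9 lower in lesions. In simulated data of the same size the test found 58.5% of features given a log2 change of 2 and 77% of those given one of 3, but 0% of those given one of 1, so that a 2-fold change was not detectable there. With 200 features changed each time, 0, 6 and 17 unchanged features were called at changes of 1, 2 and 3. The simulated noise was independent between features. Permuting 6 arrays gives no p under 0.1, and no single-gene permutation p is given.

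**Figure D1:**
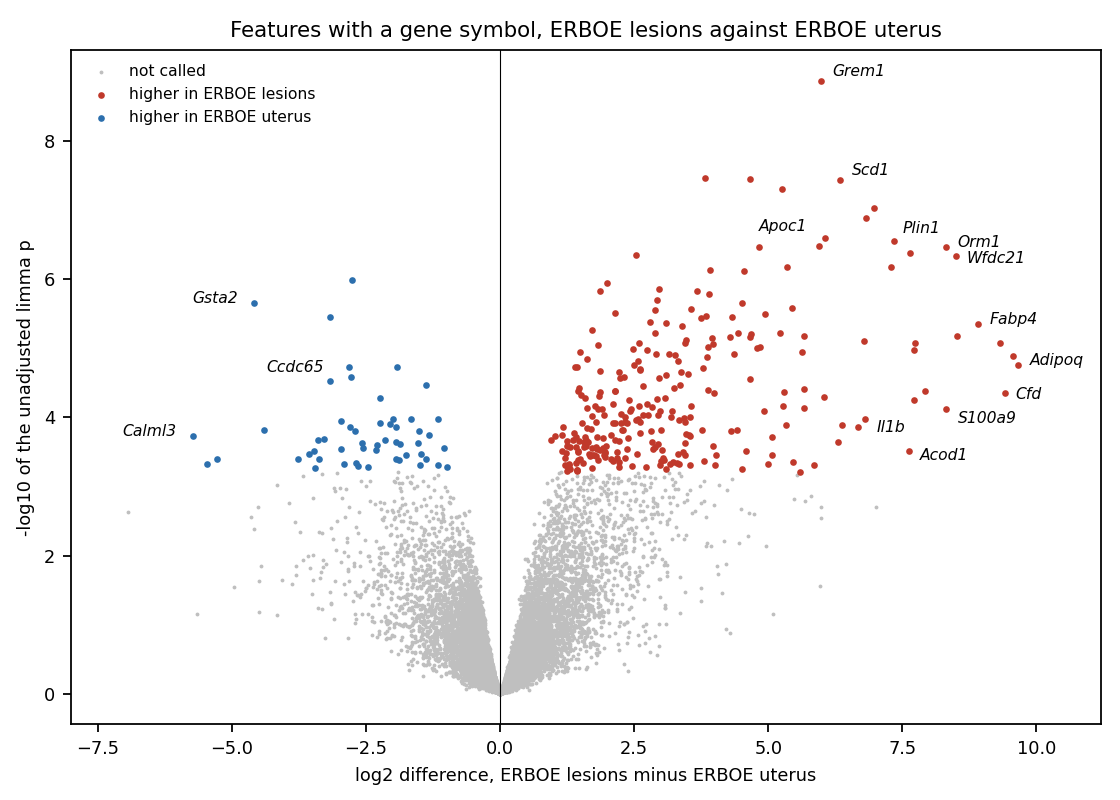
Each point is a feature with a gene symbol, with the log2 difference between ERBOE lesions and ERBOE uterus on the x axis and -log10 of the unadjusted limma p on the y axis. Red points are the 270 genes called higher and blue points the 53 called lower in lesions at an adjusted p under 0.05. Genes not above background in a group are drawn at their fitted difference. The red points reach differences above 9, where Adipoq and Cfd lie, and Grem1 has the smallest p.

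Adipocytes store triglyceride in a droplet coated by perilipins, release fatty acids through lipases, and secrete adipokines. Of 27 adipocyte genes tested, 15 rose in ERBOE lesions and 0 fell, with a median difference of 3.47 (25 of 27 positive). Cfd, which encodes the adipokine and complement protease adipsin, was measured at 8.30, 7.55 and 8.43 in lesions, against -4.29, 0.37 and -0.02 in uterus, a difference of 9.41 ± 1.64 (SE, n = 3 arrays each; adjusted p = 0.0113). Adipoq, the gene of adiponectin, was at 4.90, 4.67 and 5.35 in lesions, against -6.90, -3.62 and -3.55 in uterus, where it was well above background on 2 of 3 arrays, and differed by 9.66 ± 1.54 (adjusted p = 0.0064). In both genes the lesions lay close together and uterus replicate 1 lay below the other uteri. The SE given with a difference, here and below, comes from the fit, whose spread was estimated over all groups of the series. It is therefore not the scatter of the lesion and uterus arrays printed beside it. Fabp4, a fatty acid carrier of adipocytes that capillary endothelium also makes, was at 6.45, 6.55 and 6.66 in lesions, against -3.34, -1.64 and -2.11 in uterus, or 482-fold higher (log2 difference 8.91 ± 1.26, adjusted p = 0.00323). Car3, a carbonic anhydrase abundant in fat and slow muscle, was at 5.89, 5.67 and 6.12 in lesions, against -2.61, -2.73 and -2.55 in uterus, a difference of 8.53 ± 1.25 (adjusted p = 0.00387). The 3 lesions lay close together in Fabp4 and Car3, and the groups did not overlap. Scd1, the stearoyl-CoA desaturase, was at 4.51, 4.42 and 4.79 in lesions, against -2.20, -1.73 and -1.39 in uterus, and differed by 6.34 ± 0.60 (adjusted p = 0.0003).

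Plin1, which encodes the perilipin of fat droplets, was not well above background on any uterus array and was at 1.77, 2.06 and 2.22 in lesions. For such a gene only a bound on the fold is given, taken against the lowest signal called above background: Plin1 was at least 109-fold higher in lesions (adjusted p = 0.000886). The droplet protein gene Cidec differed by 9.56 ± 1.48, the adipokine gene Retn by 9.33 ± 1.39, the beta-3 adrenergic receptor gene Adrb3 by 5.44 ± 0.73, and Cebpa, a transcription factor of adipocyte differentiation, by 2.79 ± 0.39. Hormone-sensitive lipase, Lipe, differed by 2.89 ± 0.42 and lipoprotein lipase, Lpl, by 2.82 ± 0.52. Other adipocyte genes did not pass, among them Pparg at 2.46 ± 0.59 (adjusted p = 0.0596), Fasn at 1.88 ± 0.47, the leptin gene Lep at 0.30 ± 0.27 and Cidea, a droplet protein gene of thermogenic fat, at -0.32 ± 0.82. The mean level of the list lay between 2.66 and 2.99 in the 3 lesions, against -1.55 to -1.11 in the 3 uteri. Within slides 1, 2 and 3 its median difference was 3.41, 3.76 and 2.48. Of the 15 calls, 13 held whichever array was left out, and Cfd (adjusted p = 0.0647 without uterus replicate 1) and Lpl (0.08 at most) did not. Gpd1 (adjusted p = 0.0439) and Pnpla2 (0.0354) passed as well with slide as a block.

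Further genes among the 15 largest rises have known roles in lipid handling. Cyp2e1, a cytochrome P450 of liver and fat, was at 4.02, 2.86 and 4.75 in lesions, against -4.55, -3.12 and -3.86 in uterus, a difference of 7.72 ± 1.18 (adjusted p = 0.00467). The apolipoprotein gene Apoc1 differed by 6.06 ± 0.67 and the fatty acid and scavenger receptor gene Cd36 by 4.66 ± 0.78, and each of the 3 held whichever array was left out. The lipogenic genes Acaca, at 2.22 ± 0.45, and Me1, at 1.83 ± 0.27, rose with Scd1, yet those 3 were the only calls among 30 genes of cholesterol and fatty acid synthesis, whose median was -0.25. The call of Acaca was lost when any of 5 arrays was left out, all but uterus replicate 3 (adjusted p up to 0.139). Acly passed as well with slide as a block (adjusted p = 0.0448). Chosen after their values were seen, Mrap, Adig, Trarg1, Slc7a10, G0s2 and Ebf2, each known from adipocytes, were also called, with Mrap, Adig and G0s2 at 7.64, 4.51 and 3.09 and with Trarg1, Slc7a10 and Ebf2 at least 12.1-fold, 34.5-fold and 6.69-fold higher. The adipocyte list thus moved with the lesion group as a whole, and its part in the other differences was not tested.

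**Figure D2:**
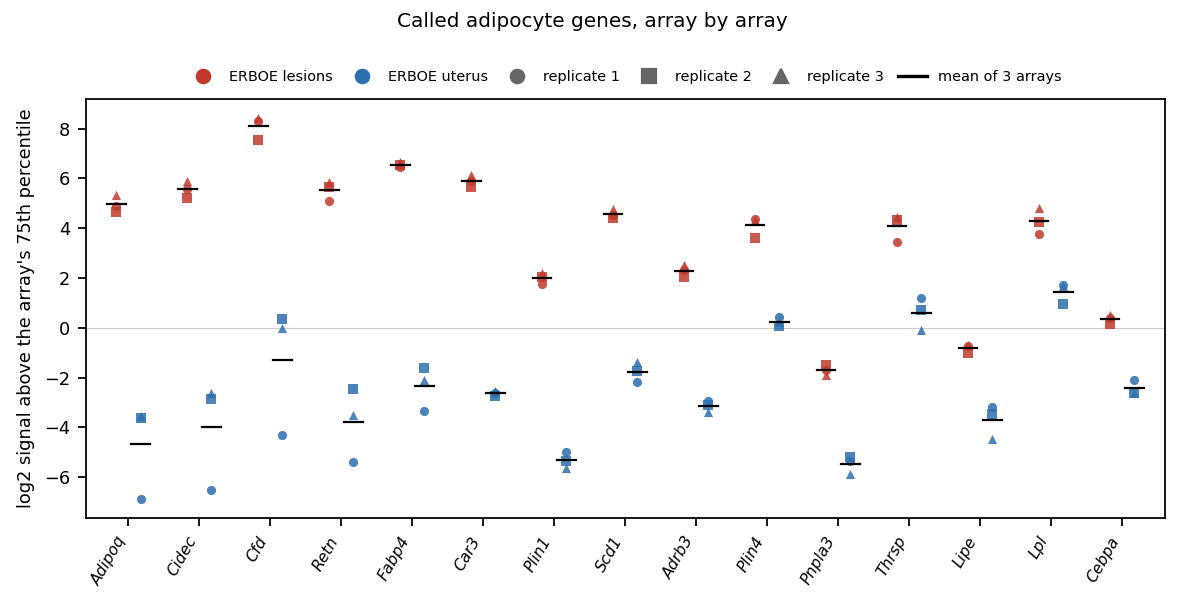
The 15 called adipocyte genes are on the x axis and the log2 signal relative to the 75th percentile of the array is on the y axis, with 1 point per array, ERBOE lesions left of ERBOE uterus for each gene, and a bar at the mean of 3 arrays. All 3 lesions lie above all 3 uteri in each gene, and uterus replicate 1 lies lowest in Adipoq, Cidec, Cfd, Retn and Fabp4.

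Acute phase and innate defence genes encode plasma and leukocyte proteins that are induced by injury and cytokines. Of 23 tested, 7 rose and 0 fell, with a median of 2.33. Hp, the gene of haptoglobin, which binds free haemoglobin, was at 7.38, 5.88 and 6.19 in lesions, against -1.80, -0.45 and -1.47 in uterus, a difference of 7.73 ± 1.37 (adjusted p = 0.0129). S100a9, which encodes a subunit of calprotectin of neutrophils and monocytes, was at 7.33, 3.42 and 5.03 in lesions, against -2.93, -3.70 and -2.55 in uterus (difference 8.32 ± 1.53, adjusted p = 0.0157). Its partner S100a8 was at 5.43, 1.84 and 3.55 in lesions, against -4.42, -4.61 and -3.89 in uterus (difference 7.92 ± 1.33, adjusted p = 0.0111). In both calprotectin genes lesion replicate 1 was highest and lesion replicate 2 lowest of the lesions, and all 3 lay above every uterus. The orosomucoid genes Orm1 and Orm2 and the serpin gene Serpina3n were not well above background on any uterus array and were at least 72.8-fold, 25.4-fold and 36.2-fold higher in lesions (adjusted p = 0.000886, 0.000625 and 0.000518). Wfdc21, which encodes a small whey acidic protein, had the highest bound in the comparison, at least 135-fold (adjusted p = 0.000966). Members that did not pass were Saa3, at 5.69 ± 1.48, Chil1, at 7.00 ± 1.86, and the lipocalin gene Lcn2, at -0.67 ± 1.80. The mean level of the list was 1.67, -0.08 and 0.59 in lesion replicates 1 to 3, against -2.88 to -2.46 in the uteri.

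Interleukin 1 beta is made as an inactive precursor that caspase-1 in the inflammasome cleaves, and the receptor antagonist limits interleukin 1 action. Of 26 inflammasome and interleukin 1 genes, 5 rose and 1 fell, with a median of 0.50. Il1b was at 3.10, 0.55 and 0.68 in lesions and not well above background on any uterus array, so that it was at least 73.4-fold higher (adjusted p = 0.019). The antagonist gene Il1rn was at 2.27, -0.51 and -0.27 in lesions, against -3.69, -5.03 and -4.99 in uterus, where 1 of 3 arrays was well above background (difference 5.07 ± 1.03, adjusted p = 0.026). The alarmin gene Il33 was at 2.58, 1.48 and 1.65 in lesions, against -1.24, -0.45 and -0.84 in uterus, a difference of 2.75 ± 0.50 (adjusted p = 0.0143). The pyrin gene Mefv, at 5.07 ± 1.09, and the interleukin 36 gene Il1f9, at least 7.27-fold higher, rose as well. Nlrp6, an inflammasome sensor known from gut epithelium, was the member that fell, at least 2.17-fold lower in lesions, where it was not well above background on any array (adjusted p = 0.042). Acod1, which encodes the itaconate-making enzyme of activated macrophages and is also a progesterone-regulated gene of mouse uterine epithelium, was at 3.61, 4.86 and 1.85 in lesions, against -4.35, -4.06 and -4.16 in uterus (difference 7.62 ± 1.62, adjusted p = 0.0332).

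Of 21 neutrophil genes, 4 rose and 0 fell, with a median of 1.37. They were S100a8, S100a9, the cystatin gene Stfa2l1, at least 6.16-fold higher, and Clec4d, a C-type lectin receptor, which was at 4.16, 2.05 and 2.54 in lesions, against -4.20, -4.61 and -2.79 in uterus (difference 6.78 ± 1.01, adjusted p = 0.00414). Genes of neutrophil granules did not pass, with Mpo at -0.01 ± 0.60, Elane at 0.27 ± 0.41, Ltf at 0.12 ± 1.64 and Camp at 0.18 ± 0.39. The related lectin receptor gene Clec4e was at least 43.3-fold higher in lesions (adjusted p = 0.00414). Among these innate genes Clec4d, Clec4e, Orm1, Orm2, Serpina3n and Wfdc21 held whichever array was left out. Other calls among the acute phase, interleukin 1 and neutrophil genes were lost when any of several arrays was left out: 2 arrays for Hp (adjusted p up to 0.0754) and Il33 (0.0902), 3 for S100a8 (0.0705) and Il1b (0.105), 4 for S100a9 (0.0949), 5 for Il1rn (0.14), Mefv (0.188) and Stfa2l1 (0.162), and each of the 6 for Acod1 (0.131), Il1f9 (0.21) and Nlrp6 (0.17). With slide as a block Il1f9 (adjusted p = 0.0577), Nlrp6 (0.053) and Stfa2l1 (0.0522) did not pass.

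Chemokines are small secreted proteins that attract leukocytes through receptors on them. Of 47 chemokine and receptor genes, 6 rose and 1 fell, with a median of 1.06 (38 of 47 positive). Cxcl2 and Cxcl3, neutrophil attractants, were at 0.46, -2.80 and -2.30 and at 0.57, -2.16 and -2.34 in lesions and not well above background on any uterus array. They were at least 9.24-fold and 10.9-fold higher in lesions (adjusted p = 0.04 and 0.0153), and lesion replicate 1 was highest in both. Ccl24, an eosinophil attractant, was at 0.69, -0.20 and 0.28 in lesions, against -4.39, -3.78 and -4.01 in uterus (difference 4.32 ± 0.60, adjusted p = 0.00294). Ccl9, Cxcl14 and Ccl19 differed by 3.54 ± 0.67, 2.66 ± 0.45 and 4.51 ± 1.01. For Ccl19, 1 uterus array carried no usable spot, and for Cxcl14 another probe read a difference of -0.07. Among these 7 calls, only that of Ccl24 held whichever array was left out, and the highest adjusted p of the others was 0.315. With slide as a block Ccl19 did not pass (adjusted p = 0.0612) and the B cell attractant gene Cxcl13 did (0.0367).

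The promoters of Cxcl2 and Cxcl3 are shown because both genes rose together and both hold an NF-kB motif in the 250 bases before the gene start. NF-kB is the transcription factor that carries tumour necrosis factor and interleukin 1 signals to such genes. The motif searched, on both strands, was GGGA, any base, TT, any base and CC, and its match is in capitals. Sequences are the 250 bases before the start in RefSeq annotation of GRCm38.p6, on the plus strand, at chr5:90903649-90903898 for Cxcl2 and chr5:90785851-90786100 for Cxcl3.
Cxcl2: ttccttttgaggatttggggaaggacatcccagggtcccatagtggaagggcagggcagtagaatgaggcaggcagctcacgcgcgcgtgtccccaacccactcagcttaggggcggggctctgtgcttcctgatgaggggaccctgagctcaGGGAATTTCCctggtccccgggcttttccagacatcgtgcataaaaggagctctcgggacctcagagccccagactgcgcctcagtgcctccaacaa
Cxcl3: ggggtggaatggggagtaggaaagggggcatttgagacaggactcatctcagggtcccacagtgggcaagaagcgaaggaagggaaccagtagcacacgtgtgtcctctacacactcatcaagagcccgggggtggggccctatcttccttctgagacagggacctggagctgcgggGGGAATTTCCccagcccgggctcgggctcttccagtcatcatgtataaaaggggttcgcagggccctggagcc
The match begins 97 bases before the start of Cxcl2 and 73 bases before that of Cxcl3. Counts are of genes with a promoter sequence, with a match before any of their starts. The motif was in 306 of 27025 genes (1.13%), in 6 of 192 called higher (3.12%) and in 0 of 37 called lower. Among immune genes called higher it was in 2 of 24 (8.33%), which are Cxcl2 and Cxcl3. The 27025 are all annotated genes, tested here or not, so 1.13% is not the share among tested genes. A match is a run of letters and not a measured site.

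Of 33 macrophage genes, 5 rose and 0 fell, with a median of 1.37 (31 of 33 positive). Cd5l, a secreted protein of tissue macrophages, was at -0.19, -0.43 and -0.01 in lesions, against -3.50, -3.72 and -2.67 in uterus, a difference of 3.08 ± 0.51 (adjusted p = 0.00765). Retnla, a gene of alternatively activated macrophages, was at 2.95, 3.05 and 3.15 in lesions, against -0.66, 1.35 and -0.54 in uterus (3.00 ± 0.59, adjusted p = 0.0228). The scavenger receptor gene Msr1 was at least 5.72-fold and the complement receptor gene Vsig4, well above background on 2 of 3 lesion arrays, at least 1.94-fold higher, and Cd36 was the fifth. General macrophage markers did not pass, with Adgre1, the F4/80 antigen, at 0.83 ± 0.66, Csf1r at 1.42 ± 0.47 and Cd68 at 1.28 ± 0.64. Of 20 genes typical of peritoneal macrophages, Selp rose (2.07 ± 0.41, adjusted p = 0.0253), a gene that platelets and endothelium also use, while Gata6, their defining transcription factor, was at 0.81 ± 0.43 and Timd4, not above background on any uterus array, had an adjusted p of 0.179. Of 17 mast cell and eosinophil genes, Rnase2a (2.15 ± 0.37) and Ear2 (2.29 ± 0.45) rose, both eosinophil-associated ribonucleases of a family with near-identical copies. Whether the probes tell such copies apart was not tested, here or for Orm1 and Orm2, Cxcl2 and Cxcl3, the Klra receptors and the Serpina3 serpins. Among these calls only that of Cd36, also named above for lipid handling, held whichever array was left out. The highest adjusted p of the macrophage genes was 0.18. With slide as a block the macrophage genes Cd163 (adjusted p = 0.0196), Cd209d (0.013) and Mrc1 (0.0483), the ribonuclease gene Ear1 (0.0261) and the mast cell tryptase gene Tpsb2 (0.0496) passed, and Vsig4 did not (0.059).

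No gene of the lymphocyte B, lymphocyte T or MHC class II lists passed, although most members read higher in lesions. The medians were 0.98 over 26 B cell and plasma cell genes, 1.04 over 25 T cell genes and 1.05 over 25 MHC class II presentation genes, with 23, 23 and 25 members positive. Within slide 1 those medians were 0.11, 0.45 and 0.27. The smallest p of each list belonged to Ms4a1, the B cell antigen CD20, not above background on any uterus array (adjusted p = 0.127), to the interleukin 7 receptor gene Il7r, at 2.88 ± 0.68 (0.0556), and to the cathepsin gene Ctss, at 1.88 ± 0.64 (0.206). Natural killer and cytotoxic lymphocyte genes were mostly of the opposite sign, with 2 of 27 lower, 0 higher and a median of -1.03 (21 of 27 negative). Xcl1, a chemokine made by natural killer cells, was at -3.61, -0.83 and -2.43 in lesions, against 0.33, 0.20 and -0.02 in uterus, and fell by 2.46 ± 0.55 (adjusted p = 0.0436). Klra4, a Ly49 receptor of natural killer cells, was at -2.65, -0.55 and -1.45 in lesions, against 1.34, 0.52 and 0.42 in uterus, and fell by 2.31 ± 0.49 (adjusted p = 0.0325). Lesion replicate 2 was the highest lesion in both genes, and its mean level over the list, -1.02, lay above the uteri (-1.60 to -1.46), with the other lesions at -3.08 and -2.68. The list's median was -0.03 within slide 1, -1.16 within slide 2 and -1.74 within slide 3, and without lesion replicate 1 the adjusted p was 0.199 for Xcl1 and 0.157 for Klra4. Of 31 interferon-induced genes 0 passed, with a median of -0.20 in ERBOE, beside 1.19 in the PRCre arrays (1.55 without PRCre uterus replicate 1); the difference of these medians was not tested.

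Fibroblasts activated in wounds secrete matricellular proteins, growth factors and inhibitors of Wnt signalling. Of 36 such genes, 7 rose and 0 fell, with a median of 1.21. Sfrp1, a secreted Wnt antagonist, was at 1.77, -1.14 and 0.58 in lesions, against -4.42, -4.10 and -3.13 in uterus, a difference of 4.29 ± 0.63 (adjusted p = 0.00387). The matricellular genes Comp and Tnc differed by 2.26 ± 0.42 and 3.43 ± 0.65, and Cthrc1, a protein of injured vessels and fibroblasts, by 1.21 ± 0.26. Tgfb1 and Tgfb3, ligands that drive matrix production, differed by 1.56 ± 0.33 (adjusted p = 0.0308) and 1.45 ± 0.32 (0.039). The fibroblast genes Postn, at 1.21 ± 0.55, Fn1, at 1.32 ± 0.54, and Thbs2, at 3.30 ± 0.87, did not pass. Among 33 collagens and collagen-modifying enzymes, Col8a1 and Col14a1 rose. Col8a1, a short-chain collagen of vessel walls, was at 4.30, 1.79 and 3.47 in lesions, against -1.11, -0.93 and -0.31 in uterus (3.97 ± 0.59, adjusted p = 0.00422). The main fibrillar collagen genes Col1a1, Col1a2 and Col3a1 read -0.23 ± 0.78, -0.13 ± 0.47 and 0.09 ± 0.42 and did not pass. Cilp, a matrix protein of cartilage and fibrous tissue, was at 3.04, 0.73 and 2.34 in lesions, against -3.11, -2.13 and -3.03 in uterus (4.80 ± 0.73, adjusted p = 0.00449).

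Grem1, an antagonist of bone morphogenetic proteins, had the smallest p of the comparison: it was at -0.20, -1.23 and -1.19 in lesions, against -6.92, -6.98 and -6.69 in uterus, where no array was well above background, and was at least 14.7-fold higher (adjusted p = 4.47e-05). Of 32 TGF-beta, BMP and activin genes, Grem1, Tgfb1, Tgfb3, the BMP antagonist gene Chrdl1 (1.78 ± 0.37) and the BMP target Id3 (1.80 ± 0.38) rose and 0 fell, with a median of 0.39. Of 37 Wnt pathway genes, the secreted antagonist genes Sfrp1, Sfrp2 (2.47 ± 0.55) and Sfrp5 (2.22 ± 0.36) and the receptor gene Fzd4 (1.84 ± 0.32) rose and 0 fell, with a median of 0.26. A list of IGF, EGF and related growth factor genes added Ereg, well above background on 2 of 3 lesion arrays and at least 1.61-fold higher, Nrg4 (2.58 ± 0.47) and the keratinocyte growth factor gene Fgf7 (1.60 ± 0.33) among 30 tested. The calls of Grem1, Sfrp1, Sfrp5, Col8a1 and Cilp held whichever array was left out. The other fibroblast, collagen and signalling genes lost theirs without at least 1 array, at adjusted p values up to 0.204. With slide as a block Col14a1 did not pass (adjusted p = 0.0608) and Col12a1 did (0.0459).

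Matrix metalloproteinases degrade collagen and elastin. Of 33 proteases and inhibitors, 3 rose and 0 fell, with a median of 0.64. Mmp12, the macrophage elastase, was at -1.50, -0.08 and 1.15 in lesions and not well above background on any uterus array, and was at least 24.4-fold higher (adjusted p = 0.0281). Mmp13, a collagenase, was at -1.94, -3.87 and -3.67 in lesions and likewise at least 3.02-fold higher (adjusted p = 0.0395). The gelatinase gene Mmp2 was at 3.35, 2.81 and 3.35 in lesions, against 1.91, 1.09 and 1.84 in uterus (1.56 ± 0.32, adjusted p = 0.0281). Lesion replicate 3 was highest for Mmp12 and lesion replicate 1 for Mmp13, and lesions and uteri did not overlap in any of the 3 genes. None of the 3 calls held whichever array was left out, with adjusted p values up to 0.204, and with slide as a block Mmp13 did not pass (0.0531).

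The promoters of Mmp12 and Mmp13 are shown because they were the 2 of 6 matrix genes called higher, among those with a promoter in the table, that hold the AP-1 motif TGANTCA, searched on both strands. AP-1 is the Fos and Jun transcription factor. Sequences are again RefSeq GRCm38.p6, the 250 bases before the start on the plus strand, at chr9:7347124-7347373 for Mmp12, 1 of 2 starts in the table, and chr9:7272264-7272513 for Mmp13.
Mmp12: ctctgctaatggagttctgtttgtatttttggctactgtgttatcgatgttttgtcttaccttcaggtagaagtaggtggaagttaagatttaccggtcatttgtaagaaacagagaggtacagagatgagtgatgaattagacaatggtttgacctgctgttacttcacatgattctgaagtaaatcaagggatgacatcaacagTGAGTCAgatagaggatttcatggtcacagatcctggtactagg
Mmp13: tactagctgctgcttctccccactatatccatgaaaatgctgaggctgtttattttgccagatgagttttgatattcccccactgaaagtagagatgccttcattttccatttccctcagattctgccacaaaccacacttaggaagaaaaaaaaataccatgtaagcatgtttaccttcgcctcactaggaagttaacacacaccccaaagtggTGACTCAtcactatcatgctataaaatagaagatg
The capitals mark the match, which begins 44 bases before the start of Mmp12 and 35 bases before that of Mmp13. Counted by gene as before, the motif was in 2113 of 27025 genes (7.82%), in 22 of 192 called higher (11.5%) and in 1 of 37 called lower (2.7%). The 27025 again include genes that were not tested. The oestrogen response element, GGTCA and TGACC with 3 bases between them, was in 0.0666% of the 27025 genes. It was in 0 of 192 genes called higher and in 0 of 37 called lower, which says only that these letters are not in these windows. Motifs of C/EBP and of PPAR with RXR were searched as well. The C/EBP motif was in 1.98% of the 27025 genes, in 2 of 192 called higher (1.04%) and in 1 of 37 called lower (2.7%). The PPAR and RXR motif was in 0.0407% of the 27025, and in 0 of 192 and 0 of 37. Among 10 called adipocyte genes with a promoter, the C/EBP motif was in 1 and the PPAR and RXR motif in 0.

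Of 26 complement genes, 24 were positive, with a median of 1.15, and 3 rose: Cfd, Vsig4 and C4b, a classical pathway component that has a near-identical copy, at 6.49, 4.73 and 6.11 in lesions, against 3.43, 3.13 and 2.93 in uterus (2.61 ± 0.52, adjusted p = 0.0241). The call of C4b was lost when any of 5 arrays was left out (adjusted p up to 0.132). Of 32 TNF and NF-kB response genes, 30 were positive, with a median of 1.20, and Cxcl2 was the call. The adhesion molecule genes Vcam1 and Icam1 read 2.34 ± 0.59 (adjusted p = 0.0702) and 1.89 ± 0.59 (0.159), and did not pass. Among 30 genes of apoptosis and the TNF death complex 0 passed, with a median of 0.15, and the smallest p belonged to Bid, at 0.69 ± 0.25. Among 22 prostaglandin genes 0 passed, with a median of 0.62; Ptgs2, the inducible cyclooxygenase, was at -1.31, -0.77 and -2.61 in lesions and not above background on any uterus array (adjusted p = 0.274). Of 25 immediate-early genes, Klf4 fell and 0 rose, with a median of 0.55 (18 of 25 positive) and Atf3, a stress-induced factor, at 2.34 ± 0.78.

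**Figure D3:**
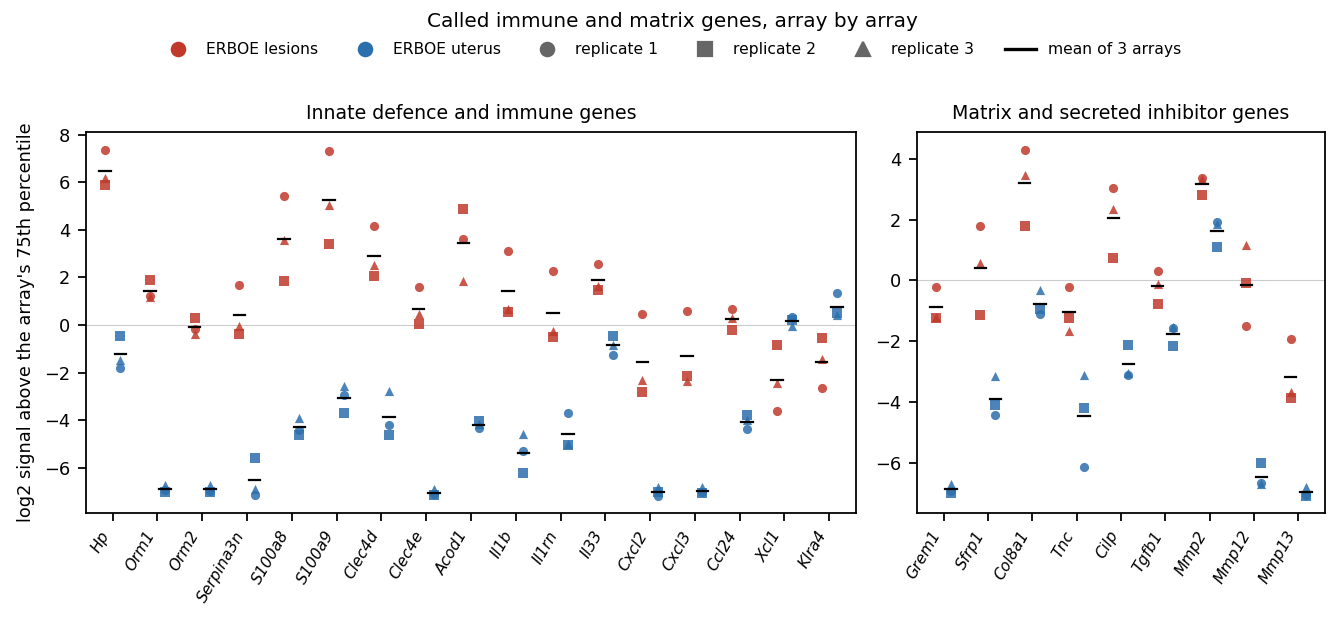
Named immune genes (left panel) and matrix and secreted inhibitor genes (right panel) are on the x axes, with the log2 signal relative to the 75th percentile of the array on the y axis. Each point is an array, ERBOE lesions stand left of ERBOE uterus for each gene, and bars are means of 3 arrays. All genes shown are higher in lesions except Xcl1 and Klra4, which are lower, and lesion replicate 1 is the highest lesion in S100a8, S100a9, Il1b, Cxcl2 and Cxcl3.

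Lymphatic vessels are lined by endothelium under the control of the transcription factor Prox1. Of 12 lymphatic endothelial genes, 5 rose and 0 fell, with a median of 1.42. Prox1 itself was at -2.26, -1.64 and -2.11 in lesions, against -3.19, -3.90 and -3.95 in uterus (1.68 ± 0.36, adjusted p = 0.0357). Mmrn1, a multimerin of endothelium and platelets, was at 0.58, 0.57 and 0.77 in lesions, against -1.44, -0.97 and -1.11 in uterus (1.81 ± 0.37, adjusted p = 0.0259). Pdpn, podoplanin, which fibroblasts and mesothelium also express, differed by 1.63 ± 0.32, the semaphorin gene Sema3d by 2.41 ± 0.43 and the endothelial and macrophage scavenger receptor gene Stab1 by 1.41 ± 0.31. Lyve1, the lymphatic hyaluronan receptor, read 1.42 ± 0.37 and did not pass (adjusted p = 0.0799). None of the 5 calls held whichever array was left out, with adjusted p values up to 0.199, and with slide as a block Prox1 did not pass (0.0503). Of 33 endothelial and angiogenesis genes 30 were positive, with a median of 0.79, and Fabp4 was the only call. With slide as a block the vascular growth factor gene Vegfd (adjusted p = 0.0363) and the apelin gene Apln (0.0432) passed as well, at the same differences of 1.86 ± 0.45 and 2.06 ± 0.52 that the fit without slide gave adjusted p values of 0.064 and 0.0702. Of 27 coagulation genes, 4 rose and 0 fell: F10, coagulation factor X, at least 45.8-fold, F7, factor VII, at least 9.39-fold, the platelet chemokine gene Pf4 by 2.31 ± 0.38 and F13a1, a transglutaminase that macrophages also make, by 1.96 ± 0.43. Those of F7 and Pf4 held whichever array was left out.

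Enzymes of oxidant and xenobiotic defence moved in both directions. Of 34 glutathione and detoxification genes, 2 rose and 1 fell, with a median of 0.17. Sod3, the extracellular superoxide dismutase, was at 3.42, 2.42 and 3.08 in lesions, against -0.68, -0.29 and -0.07 in uterus (3.32 ± 0.52, adjusted p = 0.00575), and its call held whichever array was left out. Mgst2, a microsomal glutathione transferase, differed by 2.83 ± 0.58, and its call was lost when any of 5 arrays was left out (adjusted p up to 0.116). The catalase gene Cat passed as well with slide as a block (adjusted p = 0.0436). Cyp1b1, a cytochrome P450 that hydroxylates oestrogens, was not well above background on any uterus array and was at least 48.1-fold higher in lesions, which were at 1.61, 0.32 and 0.58 (adjusted p = 0.0208); this call too was lost when any of 5 arrays was left out (adjusted p up to 0.105). Chl1, a cell adhesion molecule of the L1 family, was at 2.03, -0.29 and -0.11 in lesions, against -3.40, -4.11 and -4.52 in uterus (4.55 ± 0.55, adjusted p = 0.00126), and held whichever array was left out. Of 29 neural and Schwann cell genes 0 passed, with a median of 0.10, and with slide as a block the Schwann cell factor gene Sox10 did (adjusted p = 0.0497). No gene passed among 32 glycolysis and hypoxia genes, 27 secretory pathway genes and 9 aquaporin genes.

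The genes that fell were fewer and changed by less. Among those well above background on all 6 arrays, the largest falls were in Rapgefl1, a guanine nucleotide exchange factor-like protein of epithelium, and Ckmt1, the mitochondrial creatine kinase. Rapgefl1 was at -1.83, -1.53 and -1.80 in lesions, against 2.86, 1.75 and 0.64 in uterus, and fell by 3.47 ± 0.74 (adjusted p = 0.0335). Ckmt1 was at 1.80, 1.23 and 1.48 in lesions, against 5.85, 5.23 and 3.82 in uterus, and fell by 3.46 ± 0.78 (adjusted p = 0.0448). In both, lesions lay close together while uteri spread over 2 units or more, with uterus replicate 3 lowest.

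Ccdc65, a subunit of the ciliary dynein regulatory complex, was at -2.85, -3.34 and -3.12 in lesions, against -0.27, 0.44 and -1.14 in uterus (fell by 2.78 ± 0.46, adjusted p = 0.00805). Ptpru, a receptor tyrosine phosphatase, was at -0.57, -0.31 and 0.60 in lesions, against 3.32, 2.67 and 1.78 in uterus (adjusted p = 0.0413). Chst8, a sulfotransferase of glycoprotein sugars, was at -0.84, -1.09 and -0.29 in lesions, against 2.61, 1.96 and 1.14 in uterus (0.0433). Bace2, a membrane protease, was at 1.43, 2.63 and 1.83 in lesions, against 5.19, 4.94 and 3.50 in uterus (0.0285). With Xcl1 and Klra4 these were the 8 largest falls among genes above background on all 6 arrays, and lesions and uteri did not overlap in any of them. The acyltransferase gene Mboat2 fell by 2.23, the chordin-like gene Chrdl2 by 2.15, the stress gene Ddit4l by 2.06, the ciliary rootlet gene Crocc by 1.99, the myosin gene Myo5c by 1.94 and D430019H16Rik by 1.93. Klf4, a transcription factor of epithelial differentiation and of growth arrest, was tight within each group, at 3.19, 3.06 and 3.10 in lesions, against 5.08, 5.11 and 4.95 in uterus (fell by 1.94 ± 0.40, adjusted p = 0.0281).

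Genes not well above background on any lesion array can be given only as bounds. Gsta2, a glutathione transferase, was at least 5.33-fold lower in lesions, where the uteri were at -1.77, -1.72 and -2.85 (adjusted p = 0.00232). Ccdc187 was at least 4.90-fold lower, 4933407L21Rik at least 3.28-fold, Rit2, a small GTPase known from neurons, at least 2.75-fold, and Gm10532 at least 1.90-fold. Calml3, a calmodulin-like protein of stratified epithelium, was the only call among 16 keratinocyte genes (with slide as a block Sbsn passed too, adjusted p = 0.0196), at -6.97, -3.43 and -5.99 in lesions, of which 1 array was well above background, against 1.34, 1.08 and -1.65 in uterus (adjusted p = 0.0258). Hsd17b11, a short-chain dehydrogenase of lipid droplets that can act on steroids, fell by 1.32 ± 0.27. Of the falls named here, those of D430019H16Rik, Gsta2 and 4933407L21Rik held whichever array was left out. The others lost their calls without at least 1 array, at adjusted p values up to 0.2, and Chst8, Klf4 and Nlrp6 lost theirs whichever of the 6 arrays was left out.

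The sex steroid receptor genes did not pass. Esr2 was at 2.13, 2.09 and 2.39 in lesions, against 2.42, 2.56 and 2.41 in uterus, a difference of -0.26 ± 0.20 (adjusted p = 0.692). A further Esr2 probe was dim in both groups, at -6.16 in lesions, against -6.62 in uterus. Esr1 was at 2.76, 3.25 and 3.09 in lesions, against 3.79, 3.74 and 3.77 in uterus, and differed by -0.73 ± 0.33 (adjusted p = 0.393), with all 3 lesions below all 3 uteri. Pgr, the progesterone receptor gene, was at 0.41, 0.40 and 1.28 in lesions, against 1.43, 1.91 and 2.02 in uterus (-1.09 ± 0.59, adjusted p = 0.513), again without overlap. Groups without overlap were found for 20.1% of all features, so this does not set either gene apart. Of 25 oestrogen-induced uterine genes 0 passed, with a median of -0.30 and values as far apart as 5.97 ± 2.44 for the small proline-rich gene Sprr2d and -3.82 ± 1.09 for the peptidylarginine deiminase gene Padi2. Of 16 uterine gland genes 0 passed (median -0.16), with the gland transcription factor gene Foxa2 at -1.60 ± 0.88, and of 17 motile cilia genes 0 passed (median -0.23). Of 21 progesterone and hedgehog axis genes only Acod1 was called. Of 21 Muellerian and Hox positional genes 0 passed (median -0.05), and of 21 steroid receptors and coregulators 0 passed (median -0.11).

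No epithelial keratin or junction gene passed among 30 tested, yet 27 were negative, with a median of -0.85. Of the 17901 features with a symbol, 9678 were negative. Krt19 read -2.22 ± 0.85, Krt8 -1.46 ± 0.69, the E-cadherin gene Cdh1 -0.97 ± 0.56 and Epcam -1.02 ± 0.55. The list's mean level was 0.95, 1.35 and 0.96 in lesions, against 2.38, 2.07 and 1.45 in uteri, and the groups did not overlap. Within slides 1, 2 and 3 its median was -0.17, -1.16 and -1.58. Of 24 smooth muscle contractile genes 0 passed, with a median of -0.58, and Acta2 read -0.63 ± 0.48 and Myh11 -0.82 ± 0.46. Mitosis genes had a median of -0.39 and DNA replication genes one of 0.12, with 0 of 44 and 0 of 42 called, and Mki67, the proliferation marker, read -0.47 ± 0.79. Oxidative phosphorylation genes had a median of -0.30, with 26 of 28 negative and 0 called.

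Markers of tissues next to a graft were checked. Of 18 mesothelial genes, Ildr2 (2.33 ± 0.44) and Adgrd1 (1.92 ± 0.39) rose, while the defining genes Msln, Upk3b and Wt1 read -0.02 ± 0.35, -0.01 ± 0.44 and -0.09 ± 0.36. Neither call held whichever array was left out (adjusted p up to 0.146), and with slide as a block the claudin gene Cldn15 passed as lower (0.0237). Of 16 skeletal muscle genes, Chrna1, a subunit of the muscle acetylcholine receptor, rose, at least 5.69-fold (adjusted p = 0.0552 without lesion replicate 1), and the list's median was -0.24, with Acta1 at -0.99 ± 0.62, Ckm at 0.24 ± 0.84 and Tnnt3 at -0.65 ± 0.35. Of 13 intestine and pancreas genes and 11 ovary and oviduct genes 0 passed, with medians of 0.06 and -0.20. Erythroid genes had a median of 1.15 with 0 of 12 called. Over all 51 lists, 87 of 1205 distinct genes tested were called, 80 higher and 7 lower. Of all 17901 features with a symbol 323 were called (1.8%). The lists were chosen with earlier results of these data known, which favours a larger share among their members.

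**Figure D4:**
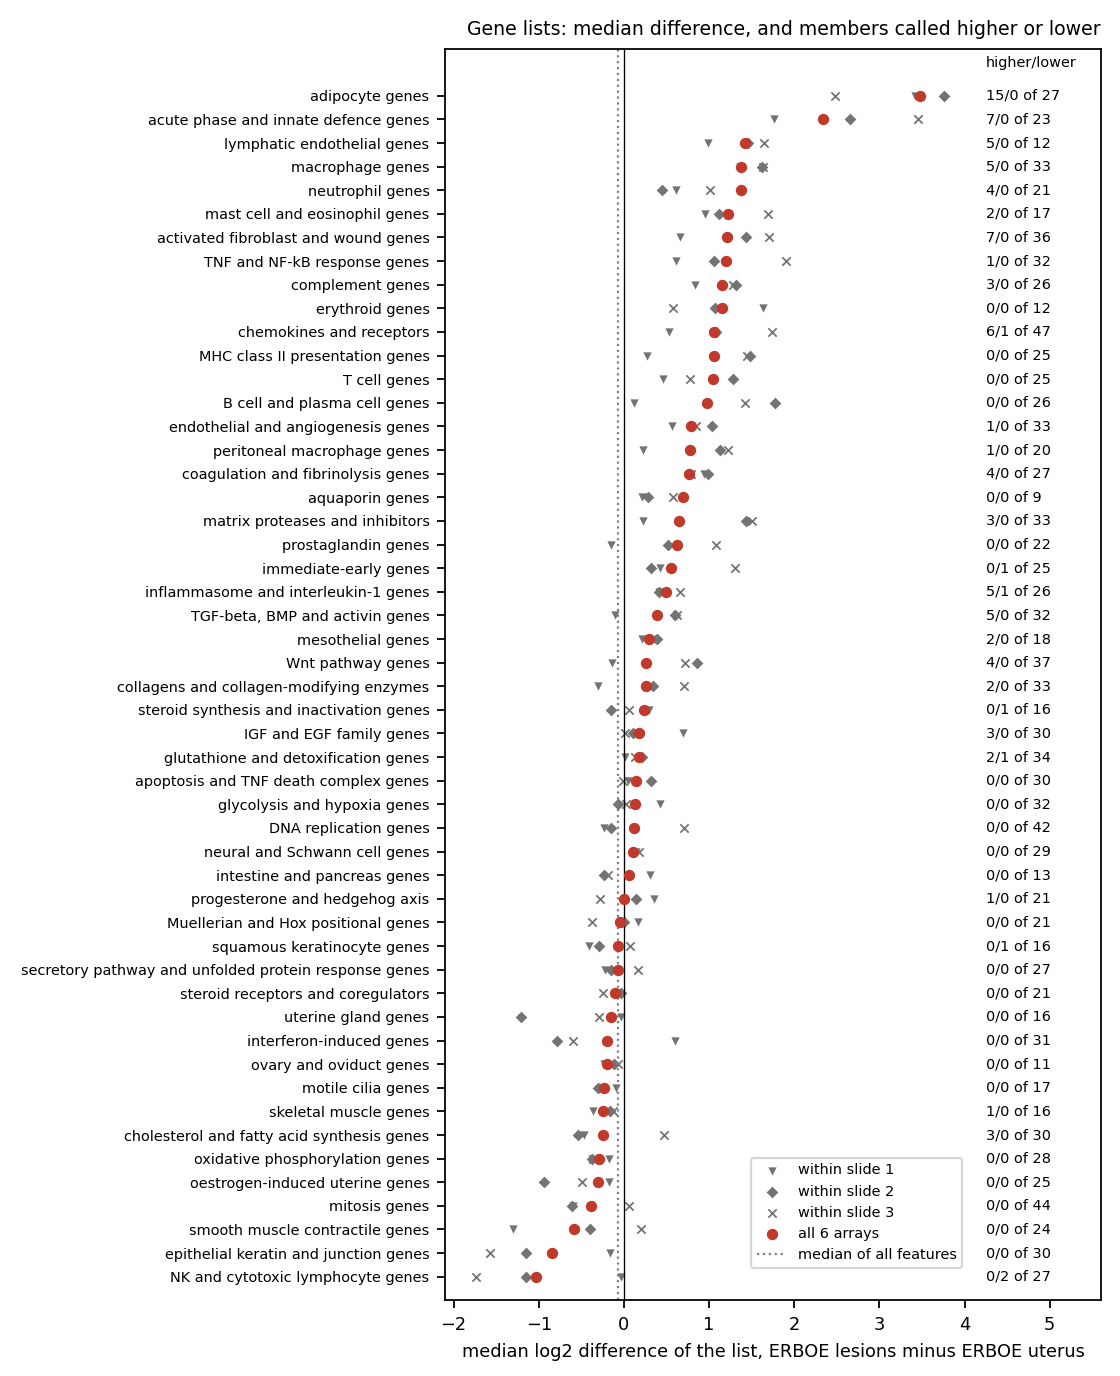
The 51 gene lists are on the y axis and the median log2 difference of their tested members, ERBOE lesions minus ERBOE uterus, is on the x axis, over all 6 arrays (red) and within each slide (grey). The dotted line is the median of all features, and the text at the right counts the members called higher and lower of those tested. The adipocyte list has the highest median, 3.47, and the natural killer list the lowest, -1.03, and within slide 1 most immune lists lie closer to 0.

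PRCre lesions and PRCre uterus, which share no array with the ERBOE groups, allow the same difference to be read in the control genotype. Slide was not balanced there: PRCre lesion replicates 1 to 3 were on slides 2, 2 and 1, and PRCre uterus replicates 1 to 3 on slides 3, 2 and 1. PRCre uterus replicate 1 stood apart, with a 75th percentile signal of 237, with 53.1% of probes well above background and with the lowest array weight of the 18 (0.267), so PRCre values are given with and without it. With it 3 features were called (0.00904%). Scd1 was at 6.34 in ERBOE and 4.36 in PRCre (adjusted p = 0.0398 in PRCre). Grem1, not above background in either uterus group, was at least 14.7-fold higher in ERBOE lesions and at least 4.72-fold higher in PRCre lesions (0.00295). Cyp3a57, a cytochrome P450 not above background in either lesion group, was at least 1.47-fold lower in ERBOE lesions, where it was not called, and at least 7.26-fold lower in PRCre lesions (0.0107). Without PRCre uterus replicate 1, 19 features were called in PRCre, Grem1 and Cyp3a57 among them and Scd1 not, and 546 in ERBOE, with 406 of the 411 among them. At an unadjusted p under 0.05 there were 3950 features in PRCre. Of the 316 features called higher in ERBOE, 289 (91.5%) were positive in PRCre too, against 43.2% of all features, and 176 (55.7%) had an unadjusted p under 0.05 in that direction, against 4.42%. Of the 95 called lower, 71 (74.7%) were negative in PRCre, against 56.8% of all features, and 34 (35.8%) had such a p, against 7.49%. The medians were 2.82 in ERBOE and 1.15 in PRCre for the features called higher, and -1.93 in ERBOE and -0.46 in PRCre for those called lower. Without PRCre uterus replicate 1 the PRCre medians were 1.13 and -0.46, with 283 of 316 (89.6%) positive and 71 of 95 (74.7%) negative. Because the features were chosen for their difference in ERBOE, a smaller difference in PRCre is what the choice favours. The fit used the same estimate of each feature's spread for both genotypes, so the choice also favours a small unadjusted p in PRCre. The shares with such a p are therefore not independent of the choice, although no array is shared.

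The test of the difference between the genotypes, lesion minus uterus in ERBOE less the same in PRCre, called 0 features in limma. The smallest adjusted p was 0.352, and 2240 features had an unadjusted p under 0.05, beside the same 1659. The 10 genes with the smallest p included the cell adhesion gene Chl1, at 4.55 in ERBOE and 0.81 in PRCre (difference 3.74 ± 0.78). They also included Chrna1 and Serpina3n, for which no exact difference can be given, since neither was above background on any ERBOE uterus array and Chrna1 was not on any PRCre lesion array either. Serpina3n was at least 36.2-fold higher in ERBOE lesions, beside a log2 difference of 1.27 in PRCre. Lpar4, a lysophosphatidic acid receptor, was at 1.06 in ERBOE and -1.10 in PRCre, the sialic acid lyase gene Npl, with 1 lesion array lacking a usable spot, at 2.37 and -1.21, and the tetraspanin gene Tspan11 at 1.48 and -2.05. The others were Gstk1, Crybg2, Nol3 and Rgs9, with differences between the genotypes of 1.69, -2.12, 1.65 and -1.66, and none of the 10 passed. Hp stood at 7.73 in ERBOE and 0.47 in PRCre, and Acod1 at 7.62 and 2.05, with adjusted p values for the difference of 0.49 and 0.666. For the adipocyte list the medians were 3.47 in ERBOE and 2.57 in PRCre (2.86 without PRCre uterus replicate 1), for the acute phase list 2.33 and 1.39 (2.05), and for the natural killer list -1.03 and -0.59 (-0.39). Other lists had medians of opposite sign. The epithelial keratin list was at -0.85 in ERBOE and 0.34 in PRCre (0.52 without that array), with 3 and 25 of 30 members positive. The erythroid list was at 1.15 and -0.51 (-0.91), the mast cell and eosinophil list at 1.22 and -0.22 (0.00), and the mitosis list at -0.39 and 0.35 (0.13), with 4 and 35 of 44 members positive. The oestrogen-induced list was at -0.30 and 0.19 (1.00) and the cholesterol and fatty acid list at -0.25 and 0.47 (0.15). The collagen and endothelial lists, at 0.26 and 0.79 in ERBOE and at 0.18 and 0.14 in PRCre, were at -0.41 and -0.32 in PRCre without that array. These differences between lists were not tested, and slide was balanced between lesions and uterus in ERBOE only.

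ERBOE eutopic endometrium against the same ERBOE uterus arrays called 0 features in limma, with 1090 at an unadjusted p under 0.05. It shares the 3 uterus arrays with the main comparison, so the values are only set side by side. The eutopic replicates 1 to 3 were on slides 2, 3 and 3, with none on slide 1. Cfd read 1.76 there, Fabp4 1.03, Hp 2.54, S100a8 2.82, Scd1 0.67 and Klf4 -1.42. The adipocyte list's median was 0.12 and the acute phase list's 0.84.

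**Figure D5:**
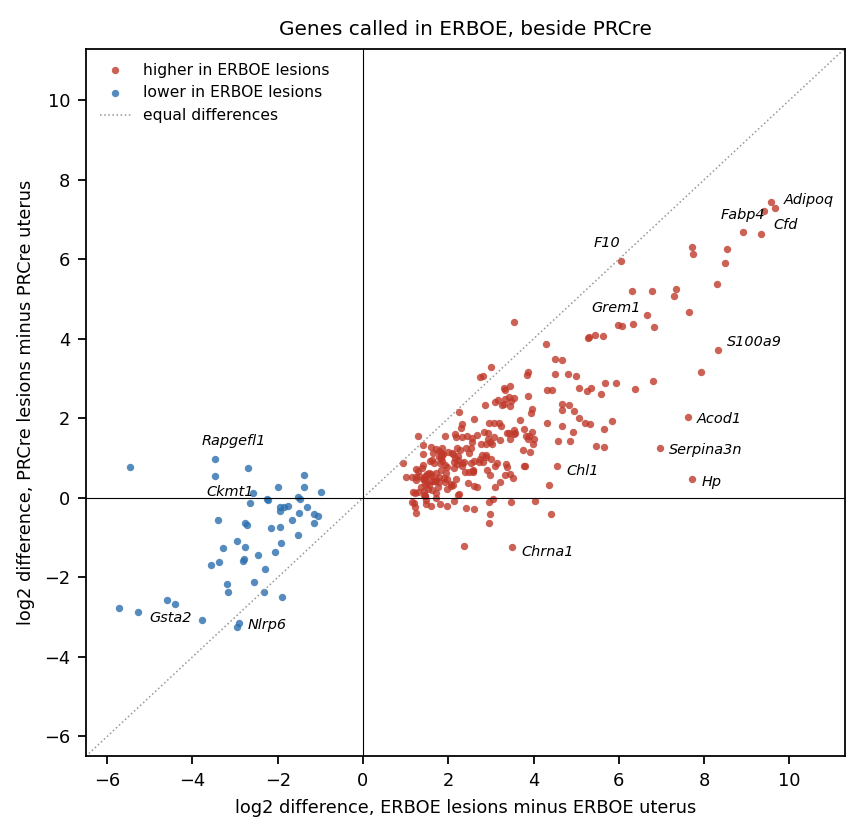
Each point is a gene called in ERBOE, with its log2 difference between lesions and uterus in ERBOE on the x axis and in PRCre on the y axis, red for the 270 called higher and blue for the 53 called lower. The dotted line marks equal differences, and genes not above background in a group are drawn at their fitted difference, which is not a measured fold. Most points lie on the same side of 0 in both genotypes, and Hp, Serpina3n, Acod1, Chl1 and Chrna1 lie far below the line.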

How the data were processed

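RNA from 18 pools was hybridised to 1-colour (Cy3) Agilent mouse arrays. Per the file headers, the deposited spot intensity values came from Agilent Feature Extraction, which subtracted background and applied its own correction to give a processed signal. The authors' deposited value table holds log2 values of the same arrays and served as an alternative. Here, control and outlier spots were left out, log2 of the processed intensity was centred on the 75th percentile of each array, and probes well above background on at least 3 of 18 arrays were kept. The brightest probe stood for each gene, with symbols from RefSeq GRCm38.p6. All 6 groups were fitted with limma 3.58.1 in R 4.3.3, with Benjamini-Hochberg adjustment over 33178 features and a threshold of 0.05. The test was run on simulated data first. Intensities give no counting depth, so the number of arrays limits the precision. Since each array is a pool, p-values set a difference against the spread between pools, estimated over all 6 groups. The SE of each difference rests on the same estimate.

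The members and gene lists were chosen with earlier results of these data known, and lists share members. Named genes were the 15 largest called differences each way among genes above background on all 6 arrays, the 8 highest bounds each way, the 5 smallest p of each list with members needed to describe it, the 3 receptor genes, and the 10 smallest p of the genotype difference. Background correction, normalization, filter, probe choice, slide, replicate number, variance model and left-out arrays were varied. For normexp the median spot signal was used, as the files used here hold no mean spot signal.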

Additional observations from a re-analysis of the deposited data

How the results depend on the processing

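All 411 features called in ERBOE lesions against uterus kept their sign under every alternative in which they were tested, and 156 passed under all 14 alternatives other than leaving out an array. Under array weights 1981 features were called, 1184 higher and 797 lower, of which 1623 differed by at least 1 log2 unit (411, 316, 95 and 406 without weights). The weight was 0.538 for lesion replicate 2 and 0.548 for uterus replicate 3, the pair on slide 1. The other ERBOE lesion and uterus arrays had weights of 1.43 to 1.71. The features called lower numbered 167 with the filter on all 3 arrays of a compared group, 58 without a filter on dim probes, 52 from the 6 arrays alone and 155 with slide as a random block. Leaving out single arrays gave 121 to 403 called, 106 to 330 higher, 12 to 73 lower and 121 to 402 of at least 1 log2 unit. Without slide 1, an alternative chosen after seeing the data, 285 were called, and without PRCre uterus replicate 1, likewise chosen after seeing the data, 546. The cause of these changes was not tested, beyond the fewer arrays that leaving out implies. The genotype difference called 0 features in all but 1 setting, in which leaving out PRCre lesion replicate 3 called 1 (Klk1b27). With replicate number as a block, 406 were called, 319 higher, 87 lower and 402 of at least 1 log2 unit, and 0 for the genotype difference. Same-numbered lesions and uteri correlated at 0.17, -0.10 and -0.11 in their deviations, against 0.17, 0.20 and 0.12 on a shared slide. The 0.17 is the same pair in both sets, lesion replicate 1 and uterus replicate 1. Among same-numbered pairs only the pair on a shared slide was positive. So few values, mixed with slide, cannot decide whether the numbers pair the samples. Gene values were counted for called list members, for the largest called differences and bounds, and for the sex steroid receptors. The genes with the smallest p of the genotype difference were counted too. Other uncalled list members, such as Pparg, Saa3 and Krt19, were not. Of the values counted, 1971 kept their side of the threshold, 491 lost it, 9 gained it and 0 reversed. Of the list medians, 994 stayed within the spread between slides and 77 moved beyond it.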
